A study of Mus musculus with 22 samples.

Results

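Endothelial cells of the spinal cord tissue were compared with endothelial cells of the meninges, the membranes that surround the cord, across all genes. The comparison used 10 of the 22 libraries of the series, chosen by their titles: 5 from the spinal cord and 5 from the meninges, numbered as batches 1 to 5 in each group. All 10 came from wild-type mouse embryos of stage E12.5 that carried the Kdr::Cherry reporter, and the cells were sorted for Cherry fluorescence after papain dissociation. Kdr encodes a receptor for vascular endothelial growth factor (VEGF), and the reporter serves to mark endothelial cells. Spinal batches 1 to 3 came from ventral cord and batches 4 and 5 from whole cord, whereas the meningeal tissue was labelled the same way in each batch. Embryos were pooled before sorting, and how many went into each pool is not stated in the labels. Tests therefore speak of the spread between pools of unknown size. The other 12 libraries came from wild-type and Plxnd1 knockout embryos. The wild-type ones among them served below to tell genes typical of motor neurons from genes typical of sorted endothelial cells.

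Vessels inside the central nervous system form the blood-brain and blood-spinal cord barrier. Their endothelial cells are joined by tight junctions, suppress transcytosis and carry nutrients by dedicated transporters, and they acquire these traits in the embryo as sprouts from the vessel plexus around the cord invade it under the action of VEGF and of Wnt7a and Wnt7b from neural progenitors. Meningeal vessels lie among fibroblasts, which make collagen and retinoic acid, and among macrophages of the border tissue. Spinal capillaries are covered by pericytes and meet microglia.

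Promoter windows are shown first for the listed barrier transporter with the largest spinal excess (Mfsd2a), for 2 of the 4 transporters whose window held a match to the motif below (Abcb1a and Slc7a1) and for the listed Wnt target gene with the largest spinal deficit (Sp5). They are shown because Wnt signals reach promoters through TCF and LEF factors. Each is the window from 250 bases before to 50 bases after the transcription start given by RefSeq on GRCm38.p6, printed 5′ to 3′ on the strand of the gene. Capitals mark CTTTGAT or CTTTGAA on either strand, the letters searched for as TCF/LEF motif. Mfsd2a, a lipid carrier of barrier endothelium, has its window at chr4:122961139-122961438 on the minus strand. Abcb1a, the efflux pump P-glycoprotein, has it at chr5:8566841-8567140 on the plus strand. The exons counted for Abcb1a begin at chr5:8660077, far downstream of this window. Whether the window belongs to the transcript that was counted was not tested. Slc7a1, a carrier of cationic amino acids, has windows at 2 starts, of which the one shown is chr5:148392766-148393065 on the minus strand, and the other held no match. Sp5, a transcription factor gene induced by Wnt signals in many tissues, has its window at chr2:70474673-70474972 on the plus strand.
Mfsd2a: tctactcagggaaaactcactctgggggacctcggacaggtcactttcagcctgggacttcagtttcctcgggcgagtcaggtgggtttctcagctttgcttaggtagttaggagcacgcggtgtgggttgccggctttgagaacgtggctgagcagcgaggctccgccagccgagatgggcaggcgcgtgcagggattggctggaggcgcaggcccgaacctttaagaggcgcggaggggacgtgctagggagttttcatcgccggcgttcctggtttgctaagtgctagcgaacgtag
Abcb1a: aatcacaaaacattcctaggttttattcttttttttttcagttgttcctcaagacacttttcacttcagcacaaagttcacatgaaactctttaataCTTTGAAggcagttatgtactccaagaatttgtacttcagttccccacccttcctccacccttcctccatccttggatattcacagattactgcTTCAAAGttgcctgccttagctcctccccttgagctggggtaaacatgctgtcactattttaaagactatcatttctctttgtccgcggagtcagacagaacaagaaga
Slc7a1: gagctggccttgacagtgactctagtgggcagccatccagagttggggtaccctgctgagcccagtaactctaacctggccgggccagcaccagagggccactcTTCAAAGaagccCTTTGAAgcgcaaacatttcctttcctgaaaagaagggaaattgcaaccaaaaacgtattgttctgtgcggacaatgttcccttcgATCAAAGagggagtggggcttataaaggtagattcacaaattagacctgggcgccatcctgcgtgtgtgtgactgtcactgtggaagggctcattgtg
Sp5: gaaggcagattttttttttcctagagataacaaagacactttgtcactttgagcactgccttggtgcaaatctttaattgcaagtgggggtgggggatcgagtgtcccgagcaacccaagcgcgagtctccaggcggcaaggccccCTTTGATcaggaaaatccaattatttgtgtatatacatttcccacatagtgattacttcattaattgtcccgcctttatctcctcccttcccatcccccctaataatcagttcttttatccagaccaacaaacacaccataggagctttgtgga
No match was in the Mfsd2a window, 2 were in that of Abcb1a, 3 in that of Slc7a1 and 1 in that of Sp5. Among 11667 tested genes with a window, 833 (7.14%) held a match. Of 20 listed barrier transporters 16 had a window and 4 held a match, namely Abcb1a, Slc39a8, Slc3a2 and Slc7a1. Of 16 listed Wnt target genes 9 had a window, and Sp5 and Tnfrsf19 held a match. The same letters thus stood in windows of genes that were higher and of genes that were lower in spinal libraries, and a match is not a measured binding site.

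Levels are given as CPM, counts relative to each library's total, scaled by TMM, which sets the bulk of all genes equal between libraries. Totals ran from 15685784 to 21493255 counts. Of 16213 genes tested with edgeR 7755 (47.8%) were called, of which 4019 (24.8% of those tested) were higher and 3736 (23%) lower in spinal libraries at an adjusted p under 0.05. The differences were at least 4-fold for 1092 of the higher and 693 of the lower genes, and at least 16-fold for 330 and 170. The lowest spinal library lay above the highest meningeal one for 3108 genes (19.2% of those tested), and the highest spinal below the lowest meningeal one for 2815 (17.4%). Kdr, the gene of the sorting reporter, stood at 854, 664, 425, 902 and 884 CPM in spinal batches 1 to 5 and 179.9, 200.0, 236, 417 and 283 CPM in meningeal batches 1 to 5. Every spinal library lay above every meningeal one, a 2.83-fold difference (edgeR adjusted p = 0.00041). Differences below are log2, spinal minus meningeal, with the standard error (SE) of the fit.

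The libraries held RNA of other cells than endothelium, and the kind of cell differed by region. Meningeal fibroblast markers, 20 genes of collagens, matrix proteins and mesenchymal transcription factors, summed to 3518, 3078, 2729, 2115 and 1959 CPM in spinal batches 1 to 5 and 19545, 19004, 19234, 25150.3 and 26064 CPM in meningeal batches 1 to 5. Every meningeal library thus lay above every spinal one. The 16 neuronal markers summed to 2059, 1741, 3455, 2792 and 2850.3 CPM in spinal batches 1 to 5 and 598, 437, 910.5, 402 and 396 CPM in meningeal batches 1 to 5, and the groups did not overlap, with spinal libraries above. The 16 neural progenitor markers summed to 2731, 1607, 2784, 1505 and 1474 CPM in spinal batches 1 to 5 and 853, 1011, 896, 948 and 961 CPM in meningeal batches 1 to 5, and here too the groups were apart. Spinal batches 1 and 3 were the highest in this sum. The 15 mural cell markers, of pericytes and smooth muscle, summed to 5433, 10167, 4054, 5312 and 5332 CPM in spinal batches 1 to 5 and 2805, 2567, 2225, 3109 and 2963 CPM in meningeal batches 1 to 5. Spinal batch 2 was the highest, and no spinal library reached down to the meningeal ones. The 18 macrophage and microglia markers summed to 1569, 2367, 1935, 4738 and 4706 CPM in spinal batches 1 to 5 and 2518, 2316, 1879, 3399 and 2589 CPM in meningeal batches 1 to 5, and the groups overlapped. In bulk libraries fewer cells of a type and less RNA per cell cannot be told apart. Which cells held the RNA of a gene higher or lower in spinal libraries was not tested. This holds for members of the endothelial and pathway lists below too.

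**Figure D1:**
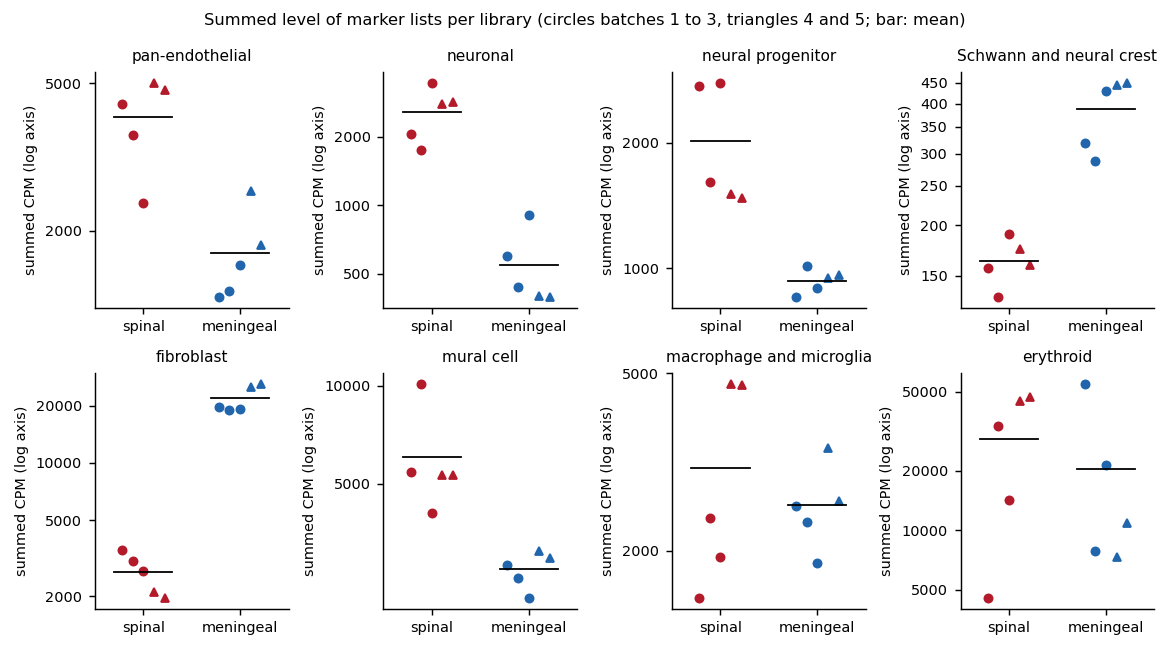
Summed level of 8 marker lists in each library, in CPM on log axes that differ between panels; circles are batches 1 to 3, triangles batches 4 and 5 and bars the group means. Pan-endothelial, neuronal, neural progenitor and mural sums lie higher in spinal libraries, with 1 overlap in the pan-endothelial panel, fibroblast and Schwann sums lie higher in meningeal ones, and macrophage and erythroid sums overlap.

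Endothelial RNA differed as well. The 20 genes expressed by endothelium of most vessels summed to 4383, 3619, 2378, 5015 and 4803 CPM in spinal batches 1 to 5 and 1324, 1372, 1612, 2556 and 1833 CPM in meningeal batches 1 to 5. Spinal batch 3, the lowest of its group, lay below meningeal batch 4, the highest of the other. Fibroblast RNA moved in the opposite direction to this sum, and its part in the difference was not tested. On the TMM scale the list had a median log2 difference of 1.35, against 0.01 over all genes tested. A second scale was therefore used throughout as an alternative: each library was divided by the median ratio of these 20 genes, so that the list as a whole is level and a difference is read relative to endothelial RNA. This endothelial scale moved log2 differences by a median of -1.25, and over all tested genes the median became -1.24, with 1057 genes (6.52%) higher and 12330 (76.1%) lower. All 1057 were higher and 3736 of the lower genes were lower on the TMM scale too, while 1016 genes were called in opposite directions. A gene higher on both scales exceeded the endothelial excess of the spinal libraries. The endothelial scale moved every tested gene downward, with log2 shifts from -1.69 to -0.28. A gene lower on the TMM scale therefore had to stay negative, and being lower on both scales adds no support to that call. Likewise a gene higher on the endothelial scale had to be positive on the TMM scale, and being higher on both adds no support to the endothelial call. List counts on the endothelial scale below are to be read against its shares over all genes, 6.52% higher and 76.1% lower.

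Within the pan-endothelial list, 14 of 20 members were higher and 1 lower on the TMM scale, and 1 higher and 6 lower on the endothelial scale. Pecam1, a junctional adhesion receptor, stood at 385, 326, 211, 481 and 479 CPM in spinal batches 1 to 5 and 88.8, 92.4, 109, 188 and 135 CPM in meningeal batches 1 to 5, with spinal libraries above throughout and a difference of 1.62 ± 0.26 (SE; adjusted p = 0.00022) on the TMM scale and 0.36 ± 0.24 (adjusted p = 0.17) on the endothelial scale. Flt1, a VEGF receptor that also acts as a decoy, was the member with the largest difference. Its levels were 330.2, 274, 174, 367 and 357 CPM in spinal batches 1 to 5 and 39.6, 49.8, 51.4, 84.7 and 59.6 CPM in meningeal batches 1 to 5, and its difference of 2.40 ± 0.24 (SE; adjusted p = 5e-06) remained at 1.13 ± 0.24 (adjusted p = 0.00018) on the endothelial scale. Cdh5, the adherens junction cadherin of endothelium, stood at 395, 275, 193, 521 and 490.5 CPM in spinal batches 1 to 5 and 175, 237, 233, 397 and 295 CPM in meningeal batches 1 to 5. The groups overlapped, and Cdh5 did not pass on the TMM scale (0.49 ± 0.28 (SE; adjusted p = 0.17)), whereas it was lower on the endothelial scale (-0.80 ± 0.26 (adjusted p = 0.0061)). Clec14a, a C-type lectin of endothelial cells, was lower in every spinal library, with 16.1 ± 5.31 against 45.8 ± 18.6 CPM (mean ± SD, n = 5 each, as for all such values) and log2 differences of -1.51 ± 0.30 and -2.76. The receptor Plxnd1, which binds class 3 semaphorins, had 610.3 ± 139.7 CPM in spinal and 387 ± 124 CPM in meningeal libraries, and its groups overlapped. It was called higher on the TMM scale (0.66 ± 0.22 (SE; adjusted p = 0.029)) and lower on the endothelial scale (-0.58 ± 0.25 (adjusted p = 0.036)), and the first of these calls was lost without any 1 of spinal batches 1, 4 and 5 and meningeal batches 1, 2, 3 and 5 (adjusted p between 0.051 and 0.083).

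Among the endothelial gene lists, barrier transporters had 9 of 20 members higher on both scales. Of them, 16 of 20 members were higher and 1 lower on the TMM scale, and 9 higher and 4 lower on the endothelial scale. The median difference was 1.34 on the TMM scale and 0.09 on the endothelial scale. Mfsd2a was at 371, 274, 212, 377 and 348 CPM in spinal batches 1 to 5 and 11.1, 9.64, 13.9, 21.6 and 14.1 CPM in meningeal batches 1 to 5. The lowest spinal value was far above the highest meningeal one, and the difference was 4.49 ± 0.25 (SE; adjusted p = 1.3e-07), or 22.4-fold, and 3.25 ± 0.26 (adjusted p = 1.3e-10) on the endothelial scale. Slco1c1, a carrier of thyroid hormone, stood at 175, 132, 82.7, 165 and 179 CPM in spinal batches 1 to 5 and 11.9, 9.45, 12.8, 27 and 16.1 CPM in meningeal batches 1 to 5, apart, with differences of 3.24 ± 0.30 and 2.01. Slc2a1, the glucose transporter GLUT1, stood at 1316, 1007, 729, 1479 and 1400.1 CPM in spinal batches 1 to 5 and 213, 163, 243, 363 and 273 CPM in meningeal batches 1 to 5, without overlap, and its difference of 2.24 ± 0.24 (SE; adjusted p = 1.1e-05) was 0.98 ± 0.26 (adjusted p = 0.0013) relative to endothelial RNA. Among amino acid carriers, Slc7a5, the large neutral amino acid transporter LAT1, had 1057 ± 283 against 254 ± 59.8 CPM (2.06 and 0.78 on the 2 scales), Slc7a1 722 ± 189 against 182 ± 70.6 CPM (1.99 and 0.75) and Slc38a5, a glutamine carrier, 177 ± 60.4 against 34 ± 12.47 CPM (2.38 and 1.11). Abcb1a had 75.6 ± 20.1 against 10.4 ± 4.5 CPM, with 2.86 on the TMM and 1.63 on the endothelial scale. The transferrin receptor gene Tfrc had 406 ± 86.1 against 106 ± 23.2 CPM (1.94 and 0.65), and it is also expressed by red cell precursors.

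The list was not uniform. Lrp8, a receptor for reelin and selenoprotein P, had the second largest difference of the list (3.71 ± 0.22 and 2.52), and it is neuronal as well. In the wild-type libraries of the knockout series its level was 283 CPM in motor neurons and 134 CPM in endothelial cells. Abcg2, another efflux pump, did not pass on the TMM scale (0.42 ± 0.17 (SE; adjusted p = 0.054); 0.033 with batch as a block, 0.011 without spinal batch 3 and 0.026 without meningeal batch 4) and was lower on the endothelial scale (-0.87 ± 0.26 (adjusted p = 0.0037)). Slco1a4, an organic anion carrier prominent in the adult barrier, was close to zero, at 0.117, 0, 0, 0 and 0.259 CPM in spinal batches 1 to 5 and 0.697, 1.09, 0.935, 1.37 and 1.01 CPM in meningeal batches 1 to 5. It was the listed transporter lower in spinal libraries on both scales, by -3.64 ± 0.65 and -4.89.

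**Figure D2:**
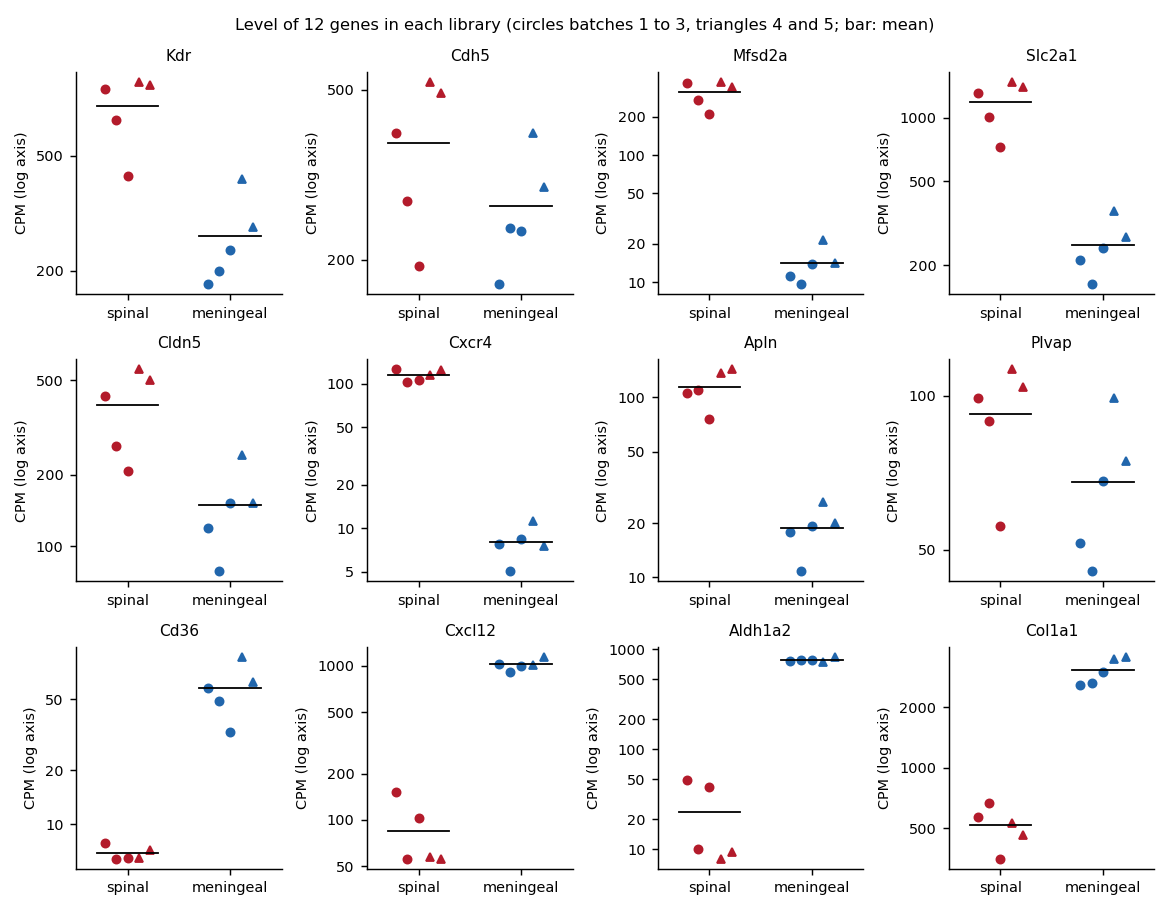
Level of 12 genes in each library, in CPM on log axes that differ between panels; circles are batches 1 to 3, triangles batches 4 and 5 and bars the group means. Mfsd2a, Slc2a1, Cxcr4 and Apln lie apart with spinal libraries above, Cd36, Cxcl12, Aldh1a2 and Col1a1 apart with meningeal libraries above, and Cdh5, Cldn5 and Plvap overlap; on the endothelial scale Cdh5 and Plvap were lower in spinal libraries.

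Junction genes were split. Among them, 9 of 15 members were higher and 2 lower on the TMM scale, and 3 higher and 6 lower on the endothelial scale. Cldn5, the main claudin of endothelial tight junctions, stood at 428, 266, 209, 557 and 503 CPM in spinal batches 1 to 5 and 119, 78.6, 152, 242 and 153 CPM in meningeal batches 1 to 5. Spinal batch 3 lay below meningeal batch 4, and the TMM difference of 1.40 ± 0.32 (SE; adjusted p = 0.003) fell to 0.14 ± 0.26 (adjusted p = 0.62) relative to endothelial RNA. F11r, which encodes junctional adhesion molecule A, had 115 ± 36.8 against 27.7 ± 9.83 CPM and was higher on both scales (2.05 and 0.80). Jam2, its relative, had 101 ± 28.6 against 18.1 ± 2.99 CPM (2.48 and 1.32), with 29.9 CPM in motor neurons and 46.8 CPM in endothelial cells in the wild-type libraries of the knockout series. Cdh2, the cadherin that joins endothelium to pericytes and neural cells to each other, had 419 ± 28.9 against 98.8 ± 14.9 CPM (2.08 and 0.85), with 295 CPM in motor neurons and 127 CPM in endothelial cells in the wild-type libraries of the knockout series. Gja1, the gap junction connexin 43, was lower in every spinal library at 139.8 ± 35.7 against 766 ± 89.4 CPM (-2.45 and -3.71). Connexin 43 is also made by meningeal fibroblasts, whose markers moved the same way.

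Receptors and targets of barrier Wnt signalling did not move as 1 group. Of 12 receptor and effector genes, 2 were higher and 3 lower on the TMM scale, and none was higher and 10 lower on the endothelial scale. On the endothelial scale 76.1% of all genes tested were lower. Tspan12, a partner of the norrin receptor Fzd4, had 40.9 ± 12.6 against 11.3 ± 1.85 CPM (1.85 and 0.63). Reck and Adgra2, which together present Wnt7 to its receptor, were lower: Reck had 38.1 ± 7.51 against 94.7 ± 11.1 CPM (-1.31 and -2.54) and Adgra2 188 ± 34.2 against 257 ± 50.7 CPM (-0.45 and -1.71). The Adgra2 groups overlapped, and with batch as a block its adjusted p was 0.064. The Adgra2 call was also lost without spinal batch 3 or 5 or meningeal batch 3, 4 or 5 (adjusted p between 0.0501 and 0.096). Lef1, a nuclear effector of this pathway, had 47.4 ± 11.3 CPM in spinal and 36.8 ± 4 CPM in meningeal libraries with overlap, did not pass on the TMM scale (0.37 ± 0.16 (SE; adjusted p = 0.083)) and was lower on the endothelial scale (-0.96 ± 0.27 (adjusted p = 0.002)).

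Among 16 Wnt target genes, 6 were higher and 6 lower on the TMM scale, and 2 higher and 12 lower on the endothelial scale. Foxq1, a forkhead factor of brain vessels, stood at 148, 209, 97.5, 183 and 168 CPM in spinal batches 1 to 5 and 21.9, 16.8, 20.7, 34.5 and 27.6 CPM in meningeal batches 1 to 5, apart and with spinal libraries above (2.73 and 1.48). Apcdd1, a Wnt inhibitor of central nervous system endothelium, had 913 ± 211 against 251 ± 66.6 CPM (1.86 and 0.60). Foxf2, a factor of brain pericytes and endothelium, had 184 ± 41.6 against 54 ± 12.51 CPM and was higher on the TMM scale only (1.77 and 0.52). Lower targets included Axin2, Sp5 and Notum, and Lef1, given above, is also on this list. Fibroblast markers moved in the same direction as these lower targets, and which cells held the RNA of the targets was not tested. Axin2, a feedback inhibitor, had 128, 163, 88.6, 119 and 108 CPM in spinal batches 1 to 5 and 212, 239, 231, 243 and 264 CPM in meningeal batches 1 to 5, with every spinal library below (-0.97 and -2.25). Sp5 had 1.7, 0.328, 1.57, 0.588 and 0.777 CPM in spinal batches 1 to 5 and 15.8, 17.7, 26.2, 23.6 and 27.9 CPM in meningeal batches 1 to 5, again without overlap (-4.46 and -5.62). Notum, a secreted enzyme that inactivates Wnt proteins, had 7.62 ± 2.5 against 21.4 ± 2.72 CPM (-1.50 and -2.80). Wnt7b itself, a ligand made by neural progenitors, stood at 129, 61.2, 160.4, 74.5 and 71.7 CPM in spinal batches 1 to 5 and 0.59, 0.321, 1.17, 0.425 and 0 CPM in meningeal batches 1 to 5 (7.63 and 6.52).

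Genes of fenestrated and peripheral vessels were mostly lower on the TMM scale. In that list, 3 of 13 members were higher and 7 lower on the TMM scale, and 1 higher and 10 lower on the endothelial scale. Of all genes tested, 24.8% were higher and 23% lower on the TMM scale, and 6.52% and 76.1% on the endothelial scale. The counts on the endothelial scale thus stood near the shares over all genes. Cd36, a fatty acid receptor of peripheral capillaries and of macrophages, stood at 7.85, 6.4, 6.48, 6.47 and 7.15 CPM in spinal batches 1 to 5 and 57.9, 49.3, 32.8, 86.8 and 62.9 CPM in meningeal batches 1 to 5, apart, with differences of -3.08 ± 0.22 (SE; adjusted p = 5.4e-07) and -4.29 on the endothelial scale. Meox2, a homeobox factor of peripheral endothelium and mesenchyme, had 5.07 ± 1.52 against 42 ± 4.59 CPM (-3.04 and -4.26), and Aqp1, a water channel, 0.811 ± 0.346 against 13.1 ± 2.5 CPM (-4.00 and -5.29). Plvap, which builds the diaphragms of fenestrae and is lost as the barrier matures, stood at 98.8, 89.1, 55.7, 113 and 104 CPM in spinal batches 1 to 5 and 51.4, 45.3, 68, 98.9 and 74.5 CPM in meningeal batches 1 to 5. The groups overlapped, and Plvap did not pass on the TMM scale (0.44 ± 0.22 (SE; adjusted p = 0.12)) and was lower on the endothelial scale (-0.80 ± 0.24 (adjusted p = 0.0039)). Tbx1, a T-box factor of brain and lymphatic endothelium, was higher on both scales (20.3 ± 6.59 against 5.37 ± 2.79 CPM, 1.91 and 0.72).

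Tip cell genes, which mark the leading cells of sprouts, included members clearly higher on both scales and members lower on both. The list median was 1.26 on the TMM scale and -0.04 on the endothelial scale. Summed levels overlapped, at 4984 to 8284 CPM in spinal and 5198 to 8504 CPM in meningeal libraries. Of this list, 13 of 20 members were higher and 3 lower on the TMM scale, and 7 higher and 8 lower on the endothelial scale. Cxcr4, the receptor of the chemokine Cxcl12, stood at 126, 102, 106, 116 and 123 CPM in spinal batches 1 to 5 and 7.72, 5.02, 8.42, 11.2 and 7.53 CPM in meningeal batches 1 to 5. The spinal values were narrow and all above the meningeal ones, with differences of 3.83 ± 0.18 (SE; adjusted p = 6.4e-08) and 2.63 ± 0.29 (adjusted p = 1.6e-08). Apln, the peptide apelin, had 105, 110.2, 75.6, 137 and 143 CPM in spinal batches 1 to 5 and 17.9, 10.8, 19.4, 26.4 and 19.96 CPM in meningeal batches 1 to 5, apart (2.59 and 1.34). Unc5b, a netrin receptor of tip and arterial cells, had 329.8 ± 76.2 against 55.7 ± 12.51 CPM (2.56 and 1.31), and Dll4, the Notch ligand of tip cells, 102 ± 26.3 against 17.9 ± 6.76 CPM (2.52 and 1.29). Igfbp3, which binds insulin-like growth factors, was lower at 35.9 ± 7.21 against 111 ± 16.1 CPM (-1.63 and -2.86).

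Arterial genes moved in both directions. Of the list, 8 of 19 members were higher and 8 lower on the TMM scale, and 6 higher and 12 lower on the endothelial scale. Gja4, the arterial connexin 37, had 149.8 ± 42.2 against 31.1 ± 6.79 CPM and was higher (2.26 and 0.97), whereas Gja5, connexin 40, had 3.98 ± 1.44 against 14 ± 4 CPM and was lower in every spinal library (-1.82 and -3.11). Cxcl12 stood at 152, 56, 102, 57.2 and 56 CPM in spinal batches 1 to 5 and 1031, 919.5, 1003, 1018 and 1150.1 CPM in meningeal batches 1 to 5, apart, with differences of -3.59 ± 0.29 (SE; adjusted p = 1.2e-06) and -4.82. Thus the ligand Cxcl12 was lower and its receptor Cxcr4 higher in spinal libraries on both scales. Fibroblast markers moved in the same direction as Cxcl12, and which cells held its RNA was not tested. Efnb2, ephrin B2 of arteries, had 109 ± 12.3 against 191 ± 25.2 CPM (-0.81 and -2.07), and its venous receptor Ephb4 had 118 ± 16.8 against 203 ± 18 CPM (-0.78 and -2.07), so both members of this pair were lower. Fbln5, a fibulin of elastic fibres, had 0.793 ± 0.389 against 18.9 ± 3.42 CPM (-4.56 and -5.83).

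Of venous and adhesive genes, 2 of 14 members were higher and 6 lower on the TMM scale, and 1 higher and 12 lower on the endothelial scale. Over all genes the shares were 24.8% higher and 23% lower on the TMM scale and 6.52% and 76.1% on the endothelial scale. The list stood close to them on the endothelial scale. On the TMM scale it held fewer higher and more lower members than these shares, with a median of -0.42. Its summed level was 983 to 1336 CPM in spinal and 1852 to 2450 CPM in meningeal libraries, without overlap. Vwf, von Willebrand factor, had 185 ± 89.3 against 60.02 ± 22.9 CPM with overlap, and its TMM difference of 1.62 ± 0.34 (SE; adjusted p = 0.0018) was 0.35 ± 0.26 (adjusted p = 0.21) on the endothelial scale. Ackr1, a chemokine scavenger of venules and red cells, was low at 9.44 ± 4.2 against 2.24 ± 0.671 CPM but higher on both scales (2.07 and 0.98), and its wild-type levels were 44.7 CPM in motor neurons and 6.99 CPM in endothelial cells. Of the lymphatic list, 5 of 7 members were higher and 2 lower on the TMM scale, and 2 higher and 2 lower on the endothelial scale. Lyve1, a hyaluronan receptor of lymphatic endothelium and border macrophages, stood at 20.2, 3.12, 8.64, 2.42 and 2.33 CPM in spinal batches 1 to 5 and 273, 228, 176, 392 and 272 CPM in meningeal batches 1 to 5, and was lower by -5.19 ± 0.59 (SE; adjusted p = 1.5e-05) on the TMM scale. Prox1, the lymphatic master factor, which spinal interneurons also express, was higher at 33.5 ± 8.67 against 7.78 ± 0.981 CPM (2.11 and 0.94), with 49.1 CPM in motor neurons and 27.5 CPM in endothelial cells in the wild-type libraries of the knockout series. Reln, reelin of neurons and lymphatic vessels, likewise had 116 CPM in motor neurons and 28.3 CPM in endothelial cells there and was higher here (3.93 and 2.68). Among genes that respond to shear stress, 3 of 10 members were higher and 4 lower on the TMM scale, and 0 higher and 7 lower on the endothelial scale. Nos3, endothelial nitric oxide synthase, had 142 ± 47.7 against 42.8 ± 15.2 CPM (1.73 and 0.47), and Cyp1b1, a flow-induced cytochrome that stromal cells also make, 16.1 ± 9.02 against 243 ± 44.7 CPM (-3.91 and -5.12).

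Notch pathway genes were mostly higher, and some of them are also genes of neural progenitors. Of these, 12 of 17 members were higher and 2 lower on the TMM scale, and 7 higher and 6 lower on the endothelial scale. The endothelial receptor Notch4 had 302, 281, 173, 272 and 235 CPM in spinal batches 1 to 5 and 24.6, 24, 41.3, 57.8 and 41.5 CPM in meningeal batches 1 to 5, apart, with differences of 2.74 ± 0.25 (SE; adjusted p = 2.7e-06) and 1.54 ± 0.25 (adjusted p = 8.7e-06). Hey1, a target gene of the pathway, had 89.8, 84.5, 70.4, 80.4 and 80.2 CPM in spinal batches 1 to 5 and 10.7, 7.52, 12.1, 10.9 and 8.7 CPM in meningeal batches 1 to 5 (3.02 and 1.76), and Nrarp, a feedback regulator of tip and stalk cells, 245 ± 36.3 against 49.4 ± 13.6 CPM (2.31 and 1.08). In the wild-type libraries of the knockout series Hey1 had 19.5 CPM in motor neurons and 27.8 CPM in endothelial cells. Notch1 was higher on the TMM scale only, at 649 ± 102 against 235 ± 36 CPM (1.47 and 0.25). The largest differences of the list were those of Hes5 (37.4 ± 12.2 against 1.37 ± 0.638 CPM, 4.77 and 3.59) and Dll1 (46.6 ± 18.9 against 3.06 ± 0.712 CPM, 3.93 and 2.83), genes of neural progenitors and nascent neurons, and Hes5 was also in the neural progenitor list.

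VEGF and angiopoietin genes moved in both directions. Of the pathway, 6 of 17 members were higher and 4 lower on the TMM scale, and 2 higher and 11 lower on the endothelial scale. The receptors Kdr, Flt1, Tek and Tie1 were higher on the TMM scale, and of these Flt1 alone was higher on the endothelial scale. Of the ligands, Apln, given above, was higher on both scales, Vegfa, Vegfd, Angpt1 and Angptl4 were lower on both, and Vegfb, Vegfc, Pgf and Angpt2 did not pass on the TMM scale (-0.20, -0.37, 0.37 and -0.55) and were lower on the endothelial scale. Vegfc and Angpt2 were near the threshold on the TMM scale (adjusted p = 0.054 and 0.051), and with batch as a block Angpt2 passed as lower (adjusted p = 0.014). Vegfa had 41.9, 22.6, 55.8, 21.8 and 16.6 CPM in spinal batches 1 to 5 and 92.4, 119, 115, 102 and 127 CPM in meningeal batches 1 to 5, with every spinal library below (-1.81 and -2.92). Angpt1, the ligand of Tek that mural and stromal cells secrete, had 24.2 ± 10.8 against 94.3 ± 22.9 CPM (-1.96 and -3.18), and Vegfd 0.428 ± 0.254 against 6.04 ± 0.689 CPM (-3.79 and -5.04).

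Guidance genes were mixed: 14 of 25 members were higher and 6 lower on the TMM scale, and 3 higher and 13 lower on the endothelial scale. Ntn1, netrin 1, which the floor plate and ventral progenitors make, stood at 443, 271, 492, 232 and 215 CPM in spinal batches 1 to 5 and 10.03, 6.3, 10.3, 9.55 and 9.5 CPM in meningeal batches 1 to 5 and was higher by 5.17 ± 0.28 (SE; adjusted p = 1.2e-07), and by 4.03 on the endothelial scale. Class 3 semaphorins went both ways. Sema3g was higher (2.15 and 0.91), and Sema3e, a ligand of Plxnd1, was lower, as was Sema3c: Sema3e had 1.43 ± 0.397 against 10.9 ± 1.51 CPM (-2.92 and -4.13) and Sema3c 13.2 ± 7.51 against 73.9 ± 12.4 CPM (-2.47 and -3.60). Efnb1, ephrin B1, had 36.4 ± 12.3 against 271 ± 24.6 CPM (-2.90 and -4.10). In the BMP and TGF-beta list, 11 of 21 members were higher and 9 lower on the TMM scale, and 2 higher and 11 lower on the endothelial scale. The ligands Bmp6 (4.35 ± 2.45 against 68.2 ± 5.03 CPM, -3.96 and -5.18) and Bmp4 (3.54 ± 1.86 against 31.6 ± 3.29 CPM, -3.15 and -4.38) were lower on both scales.

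Retinoic acid genes stood lower as a group: 1 of 15 members were higher and 10 lower on the TMM scale, and 1 higher and 14 lower on the endothelial scale. Aldh1a2, the main enzyme of retinoic acid synthesis in the meninges, stood at 49.1, 9.96, 41.5, 8.04 and 9.33 CPM in spinal batches 1 to 5 and 761, 779, 785, 752 and 844 CPM in meningeal batches 1 to 5. The meningeal values were narrow, and spinal batches 1 and 3 were the highest of their group, though still below every meningeal library. The difference was -5.05 ± 0.54 (SE; adjusted p = 9.9e-06), or 33.2-fold, and -6.19 on the endothelial scale. Rdh10, which makes its substrate retinaldehyde, had 30.3 ± 7.15 against 163 ± 32.2 CPM (-2.43 and -3.68). Cyp26a1, which degrades retinoic acid, was the member with the opposite direction, at 1.25 ± 0.767 against 0.141 ± 0.149 CPM (3.09 and 2.06). Of basement membrane genes, 2 of 15 members were higher and 4 lower on the TMM scale, and 0 higher and 13 lower on the endothelial scale. On the latter scale 76.1% of all genes tested were lower. The laminin chain Lama2 had 74.2 ± 35 against 763 ± 147 CPM (-3.36 and -4.54), whereas Agrn, the proteoglycan agrin, had 2404 ± 357 against 858 ± 186 CPM and was higher on the TMM scale only (1.49 and 0.27). Wild-type levels of Agrn were 1179 CPM in motor neurons and 1057 CPM in endothelial cells of the knockout series.

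Cell cycle genes differed little. Of 21 members, none was higher and 6 were lower on the TMM scale, with differences between -0.80 and 0.10 over the list and 9 lower and 0 higher at an unadjusted p under 0.05. All 21 were lower on the endothelial scale, where 76.1% of all genes tested were lower. Mcm5, of the replicative helicase, had 105 ± 15.5 against 182 ± 15.4 CPM (-0.80 and -2.08), and Birc5, survivin, 60.2 ± 4.68 against 96.9 ± 10.6 CPM (-0.69 and -1.94). Of glycolysis and hypoxia genes, 9 of 19 members were higher and 3 lower on the TMM scale, and 2 higher and 13 lower on the endothelial scale, and Slc2a1 had the largest difference. Of immediate early and stress genes, which respond to dissociation, 0 of 14 members were higher and 4 lower on the TMM scale, and 0 higher and 13 lower on the endothelial scale. Fos had 566, 883, 325, 438 and 407 CPM in spinal batches 1 to 5 and 851, 626, 670.2, 1205 and 1143 CPM in meningeal batches 1 to 5 with overlap (-0.78 ± 0.28 (SE; adjusted p = 0.034)), and the call was lost without spinal batch 3, 4 or 5 or meningeal batch 4 or 5 (adjusted p between 0.053 and 0.083).

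**Figure D3:**
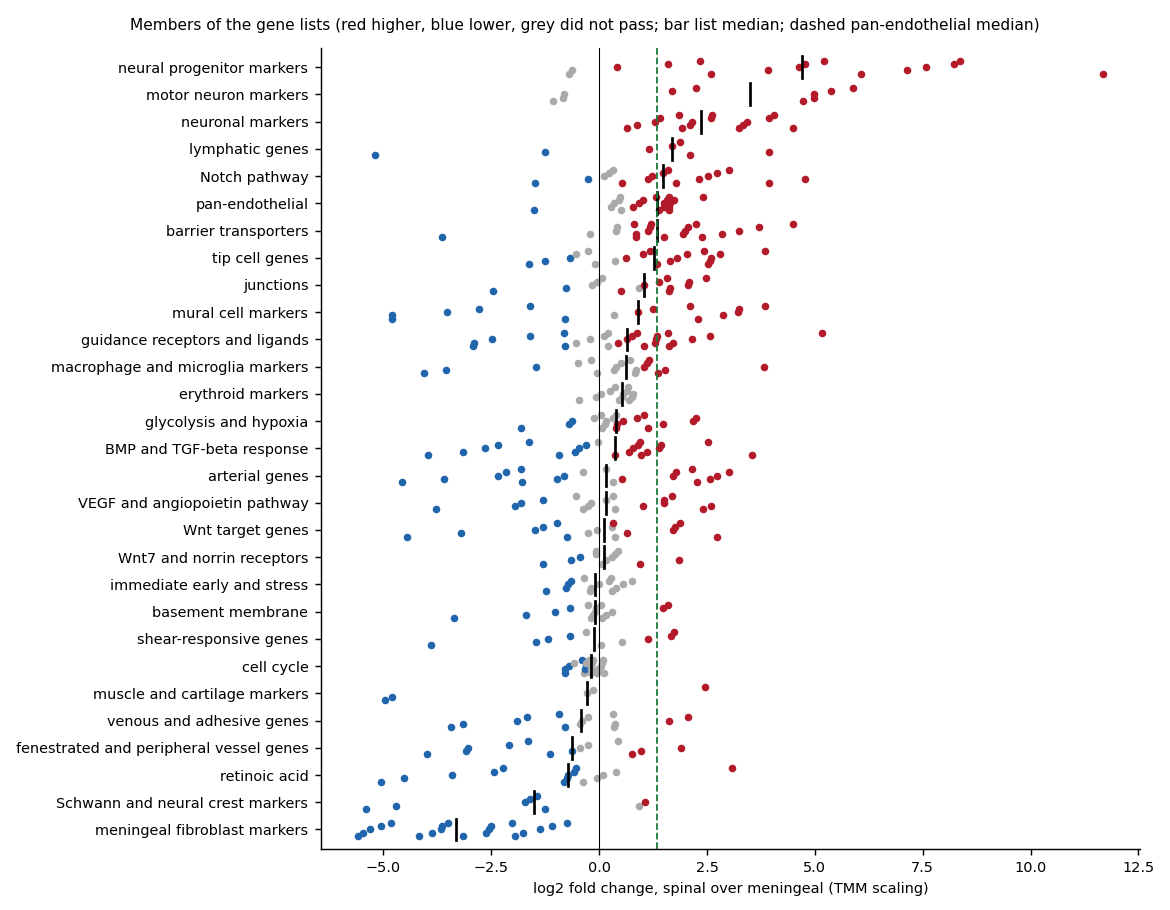
Log2 difference (spinal minus meningeal, TMM scale) of each tested member of 29 gene lists, ordered by list median; red and blue points passed as higher and lower, grey points did not pass, black bars are list medians and the dashed line is the pan-endothelial median. The medians of the neural lists lie to the right of the dashed line, the fibroblast list lies at the far left with all 20 members lower, and many members between 0 and the dashed line changed direction on the endothelial scale.

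Genes of neural cells were higher in spinal libraries. All 16 neuronal markers, 7 of 10 motor neuron markers and 14 of 16 neural progenitor markers were higher, and none was lower, on the TMM scale, with medians of 2.37, 3.49 and 4.69. On the endothelial scale 9, 6 and 12 were higher and 0, 3 and 3 lower. Dcx, a microtubule protein of young neurons, stood at 349, 278, 616, 419 and 499.8 CPM in spinal batches 1 to 5 and 20.4, 12.1, 38.6, 13 and 12.1 CPM in meningeal batches 1 to 5, with spinal libraries above throughout (4.49 and 3.30). Slc18a3, the vesicular acetylcholine transporter of motor neurons, had 4.91 ± 2.09 against 0.0763 ± 0.0966 CPM (5.88 and 4.93). Sox2, a progenitor factor, had 127, 69.3, 157, 57.9 and 66.6 CPM in spinal batches 1 to 5 and 4.77, 2.64, 4.56, 3.83 and 3.52 CPM in meningeal batches 1 to 5 (4.62 and 3.49). Olig1, of the progenitor domain of motor neurons and oligodendrocytes, had 43.3, 18.4, 22.9, 14 and 12.9 CPM in spinal batches 1 to 5 and no count in any meningeal library, so it was at least 675-fold higher, taken against 3 counts over the meningeal group. Of the 12 genes with the largest differences at a mean of at least 5 CPM, 8 are known from neural cells: Olig1, the progenitor factors Nkx2-2, Sox1 and Olig2, the interneuron factor Pax2, the glycine receptors Glra1 and Glra2, and Wnt7b. The other 4 were Gm3764 (8.16), BC024139 (7.93), Gm35040 (7.83) and Gm37608 (7.54), whose roles are not stated here.

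The wild-type libraries of the knockout series gave a ratio from libraries outside the regional comparison. Mean CPM in sorted motor neurons (3 libraries) was divided by that in sorted endothelial cells (2 libraries). The third endothelial file was left out because its counts equal those of a knockout library, and which label is right is not known. A gene was called neuron-high at a ratio of at least 2 and endothelium-high at a ratio of at most 0.25. Those endothelial cells were sorted from cord with meninges and hold stromal RNA too, so endothelium-high means only low in motor neurons. Meningeal RNA in the denominator also lowers the ratio of genes high in meninges. The neuron-high shares below are therefore not free of the regional difference, and the size of this effect was not tested. Of the 4019 genes higher in spinal libraries, 1651 (41.1%) were neuron-high, against 88 (2.36%) of the 3736 lower genes and 9.34% of those that did not pass. With a ratio of at least 4 the shares were 24.8%, 0.134% and 1.70%. Of 2529 neuron-high genes 65.3% were higher and 3.48% lower in spinal libraries. Endothelium-high genes numbered 565 among the higher and 1142 among the lower genes. Of 2650 such genes 21.3% were thus higher and 43.1% lower, against 24.8% and 23% of all genes tested. On the endothelial scale 165 of the 565 were higher too, against 1057 of the 4019 higher genes of all classes.

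The 10 endothelium-high genes with the largest excess in spinal libraries, at a mean of at least 20 CPM and in no marker list of another cell type, were Wnt7b, Rfx4, Fgfbp3, Chp2, Fgfr3, Lair1, Mfsd2a, Aldh1l1, Hopx and Cxcr4. All 10 were higher on both scales. Most are known from other cells. Rfx4, Fgfr3, Aldh1l1 and Hopx are genes of radial glia and astrocytes: Fgfr3, a fibroblast growth factor receptor, had 257, 117, 299, 92.2 and 81.7 CPM in spinal batches 1 to 5 and 3.11, 2.7, 3.92, 3.88 and 4.27 CPM in meningeal batches 1 to 5, with batches 1 and 3 the highest of the spinal group, as in the progenitor sum. Lair1, an inhibitory receptor of leukocytes, had 19.9, 27.2, 30.3, 52.5 and 65.4 CPM in spinal batches 1 to 5 and 1.61, 0.193, 0.877, 2.08 and 1.97 CPM in meningeal batches 1 to 5, with batches 4 and 5 the highest, as in the macrophage sum. Chp2, a calcineurin-like calcium-binding protein, had 86.7, 171, 59.4, 83.6 and 81.2 CPM in spinal batches 1 to 5 and 1.72, 1.67, 1.29, 3.02 and 1.97 CPM in meningeal batches 1 to 5. Its highest spinal library was batch 2, which was also the highest in the mural, tip cell and basement membrane sums. Spinal batches 1 and 3 were also the highest of their group in the guidance sum, and batches 4 and 5 in the pan-endothelial sum. Which cells held the RNA of Fgfr3, Lair1 and Chp2 was not tested. The corresponding 10 genes with the largest deficit were Slc22a6, Fmod, Gjb2, Gjb6, Osr1, Wnt6, Edn3, Tex15, Col6a6 and Slc7a11, all lower on both scales. Slc22a6, an organic anion transporter also present in arachnoid cells, had 6.73, 0, 0.36, 0.131 and 0.104 CPM in spinal batches 1 to 5 and 95.7, 91.9, 92.5, 90.2 and 116 CPM in meningeal batches 1 to 5. Gjb2 and Gjb6, connexins 26 and 30, had 1.04 ± 1.21 against 50.6 ± 5.64 CPM and 0.989 ± 1.13 against 46.4 ± 4.85 CPM, and Fmod, a collagen-binding proteoglycan, 2.88 ± 4.44 against 153 ± 29.2 CPM. In Slc22a6, Gjb2, Gjb6, Fmod and Slc7a11 spinal batch 1 was the highest of its group. At a mean of at least 5 CPM and over all classes, the 12 largest deficits were those of Slc22a6, Fmod, Gjb2, Gjb6, Slc6a13 and 7 further genes. Ttr, the thyroid hormone carrier transthyretin, had the largest, with 0, 0.0547, 0.045, 0.196 and 0 CPM in spinal batches 1 to 5 and 3.7, 13.1, 80.3, 7.8 and 11.9 CPM in meningeal batches 1 to 5 (-8.57 and -9.75). Without meningeal batch 3, the highest, the Ttr difference was -7.24, and without spinal batch 4 it was -9.50. It is a gene of choroid plexus, and its wild-type levels were 0.425 CPM in motor neurons and 0.0359 CPM in endothelial cells. The others were the sulfate transporter Slc13a4 (-6.19), the neutrophil protein S100a9 (-6.18, with counts in spinal batch 2 alone of the spinal group, and -5.59 without meningeal batch 1), Itih2 (-5.90), Glt8d2 (-5.85), Mrgprf (-5.62) and the aminopeptidase Xpnpep2 (-5.52 on the TMM scale).

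Fibroblast markers were lower without exception on both scales, with a median difference of -3.33 on the TMM scale and -4.55 on the endothelial scale. Col1a1, the alpha 1 chain of type I collagen, stood at 571, 666, 353, 529 and 464 CPM in spinal batches 1 to 5 and 2562, 2620.1, 2999.6, 3463 and 3562 CPM in meningeal batches 1 to 5, apart, with a difference of -2.56 ± 0.19 (SE; adjusted p = 6.9e-07), or 5.89-fold, and -3.82 on the endothelial scale. Lum, the proteoglycan lumican, stood at 44.7, 1.91, 45.8, 1.18 and 0.933 CPM in spinal batches 1 to 5 and 921, 788, 572, 692 and 822 CPM in meningeal batches 1 to 5 (-5.32 and -6.39). Spinal batches 1 and 3 were far above the other spinal libraries. Slc6a13, a GABA carrier of leptomeningeal cells, had 17.2, 0.273, 9.45, 0.523 and 0.259 CPM in spinal batches 1 to 5, and again batches 1 and 3 were the highest. Foxc1, a forkhead factor of meninges and of mural cells, was lower by less, at 84.5 ± 21.1 against 181 ± 23.5 CPM (-1.10 and -2.36). Schwann and neural crest markers were mostly lower: 1 of 8 members were higher and 6 lower on the TMM scale, and 0 higher and 6 lower on the endothelial scale. Of 5 tested muscle and cartilage markers, 1 was higher and 2 lower on the TMM scale, and 1 higher and 4 lower on the endothelial scale.

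Mural cell markers moved in both directions. Of the list, 8 of 15 members were higher and 6 lower on the TMM scale, and 6 higher and 7 lower on the endothelial scale. Abcc9, Rgs5, Cspg4 and Pdgfrb, known from pericytes, were higher on the TMM scale, whereas Anpep and Vtn, also made by brain pericytes, were lower. Abcc9, a subunit of potassium channels, stood at 1218, 2456, 903, 1028 and 1024 CPM in spinal batches 1 to 5 and 135, 139, 112, 176 and 147 CPM in meningeal batches 1 to 5, apart, with 3.22 ± 0.28 (SE; adjusted p = 1.8e-06) and 1.98 on the endothelial scale. Rgs5, a regulator of G protein signals, stood at 1385, 3378, 1049.9, 1513 and 1712 CPM in spinal batches 1 to 5 and 483, 317, 275, 411 and 370.4 CPM in meningeal batches 1 to 5 (2.28 and 0.98). Cspg4, the proteoglycan NG2, had 435 ± 139.9 against 59.4 ± 7.96 CPM (2.87 and 1.62). Pdgfrb, the receptor through which endothelium recruits pericytes, had 1043 ± 314 against 558 ± 75 CPM, was higher on the TMM scale (0.90 ± 0.19 (SE; adjusted p = 0.0018)) and did not pass on the endothelial scale (-0.35 ± 0.29 (adjusted p = 0.26)). Anpep, the aminopeptidase CD13, had 44.6 ± 9.15 against 135 ± 19.6 CPM (-1.59 and -2.87), with every spinal library below, and Vtn, vitronectin, 545 ± 186 against 949 ± 163 CPM with overlap (-0.80 and -2.09). Acta2, Tagln and Myh11, contractile genes of smooth muscle, were lower. Acta2, smooth muscle actin, stood at 9.43, 5.52, 4.18, 3.92 and 3.68 CPM in spinal batches 1 to 5 and 159, 155, 129, 159 and 141 CPM in meningeal batches 1 to 5, apart (-4.80 and -6.10). Tagln, transgelin, had 12.48 ± 1.97 against 85.5 ± 7.89 CPM (-2.78 and -4.08), and Myh11, smooth muscle myosin, 1.07 ± 0.361 against 12.3 ± 4.04 CPM (-3.53 and -4.78). Without spinal batch 2, the library with the highest mural sum, Abcc9 differed by 2.87 and Rgs5 by 1.92.

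**Figure D4:**
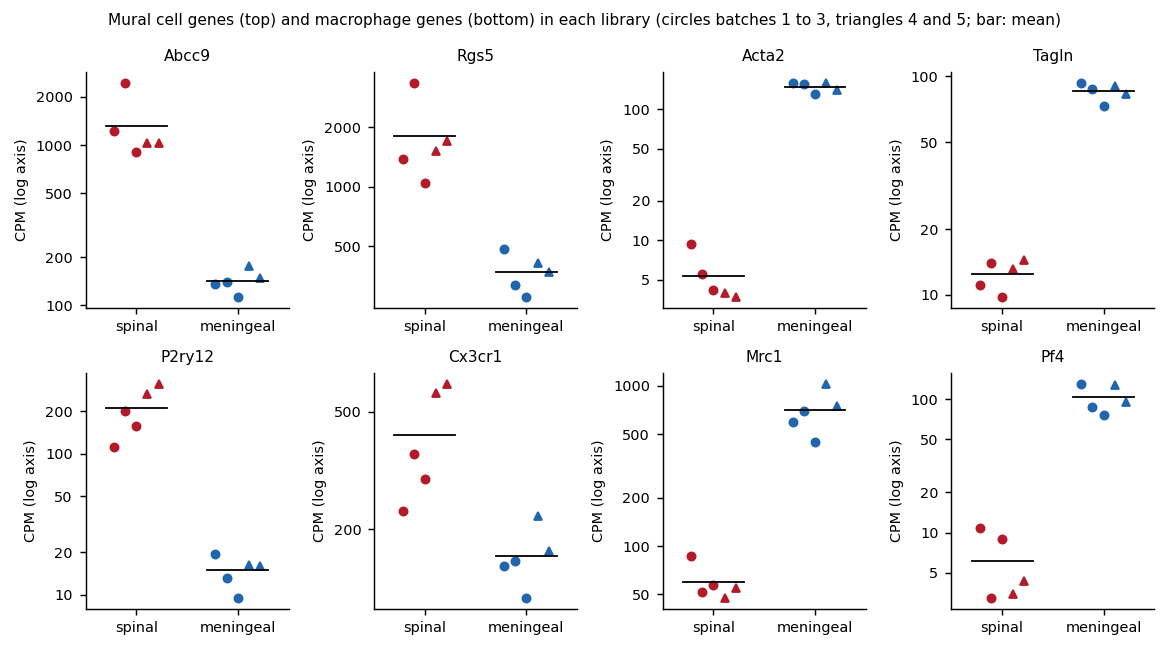
Level of 4 mural cell genes (top) and 4 macrophage genes (bottom) in each library, in CPM on log axes that differ between panels; circles are batches 1 to 3, triangles batches 4 and 5 and bars the group means. Abcc9, Rgs5, P2ry12 and Cx3cr1 lie apart with spinal libraries above and Acta2, Tagln, Mrc1 and Pf4 apart with meningeal libraries above; on the endothelial scale Cx3cr1 did not pass.

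Of 18 macrophage markers 6 were higher, 3 lower and 9 not called on the TMM scale, and 1, P2ry12, was higher and 9 lower on the endothelial scale. The 6 included genes known from microglia and genes of leukocytes in general, such as Ptprc and Laptm5 (1.10 and -0.20), and the 3 were Mrc1, Pf4 and Lyz2. P2ry12, a purinergic receptor that marks microglia, stood at 112, 200.4, 158, 265 and 316 CPM in spinal batches 1 to 5 and 19.6, 13.1, 9.47, 16.3 and 16.1 CPM in meningeal batches 1 to 5, apart, with 3.81 ± 0.29 (SE; adjusted p = 7.5e-07) and 2.49 ± 0.33 (adjusted p = 3.3e-07). Cx3cr1, the fractalkine receptor, had 417 ± 174 against 163 ± 38.4 CPM and was higher on the TMM scale only (1.36 and 0.07). Mrc1, the mannose receptor of border macrophages, stood at 87.2, 51.6, 57, 47.4 and 54.6 CPM in spinal batches 1 to 5 and 593, 698, 447, 1031 and 746 CPM in meningeal batches 1 to 5, apart with meningeal libraries above (-3.56 and -4.77). Pf4, platelet factor 4, had 6.15 ± 3.49 against 104 ± 24.6 CPM (-4.07 and -5.26), and Lyz2, lysozyme of myeloid cells, 33.3 ± 21.3 against 91.8 ± 22.7 CPM (-1.47 and -2.80). Ptprc, the pan-leukocyte antigen CD45, had 58.3 ± 17.4 against 26.2 ± 6.82 CPM with overlap (1.15 and -0.09). Spinal batches 4 and 5 had the highest macrophage sums of all 10 libraries, and leaving out either kept P2ry12 and Mrc1 called in the same directions.

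Red cell RNA varied between libraries without following the region. Of 13 tested erythroid markers none was called by edgeR on the TMM scale (0 at an unadjusted p under 0.05), and none by DESeq2. Their summed level ran from 4551 to 46944 CPM in spinal and from 7318 to 55096 CPM in meningeal libraries. Hbb-y, an embryonic beta globin, stood at 3298, 25137, 10091, 34732 and 36986 CPM in spinal batches 1 to 5 and 43982, 6214, 15496, 5708 and 8528 CPM in meningeal batches 1 to 5, with a difference of 0.46 ± 0.68 (SE; adjusted p = 0.6). In batches 1 to 3 alone this difference was -0.82 and in batches 4 and 5 alone 2.32, so its direction rests on the batches.

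The spinal libraries pool 2 dissections, and these go with the batch number. In batches 1 to 3 alone, ventral cord against meninges, 3462 genes were higher and 3645 lower, and in batches 4 and 5 alone, whole cord, 4454 and 4339. No gene called over all 10 libraries was called in the opposite direction in either. Batches 4 and 5 differed less from each other than other pairs did (mean chi-square per gene 8.93 and 11.9, against 30.5 or more). Whether they are separate pools of embryos is not known. Counts that rest on their spread, here and in the test below, may therefore be too high. A test of whether the regional difference itself differed between the 2 sets called 177 of 16213 genes (1.09%), 33 with a log2 difference further toward spinal in the ventral set and 144 further toward meningeal. The count was 0 by edgeR without spinal batch 4, spinal batch 5 or meningeal batch 5 (1930, 2284 and 1888 genes at an unadjusted p under 0.05), and 1147 without spinal batch 2. It was 1 without spinal batch 1 or meningeal batch 4, 2 without meningeal batch 2 and 309 without meningeal batch 1. Among the 177 were Col1a2, whose log2 difference was 1.58 nearer to spinal in the ventral set, Col3a1 (1.53) and Lama2 (1.65). Dissection and batch cannot be told apart here.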

How the data were processed

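The unit of the deposited files is the raw count of reads per gene, which the authors made with featureCounts 1.6.4 from exons by gene name, per the file headers; the 10 libraries used here were counted as read pairs on the reverse strand and the other 12 as single reads without strand, so levels were not tested between the 2 sets. Trimmomatic 0.39, STAR 2.5.3a and mm10 (GRCm38) are named in the submitters' processing notes. The further column of the deposited files, the summed exon length of each gene (another unit, in bases), was read from the authors' counts files and not tested. Reads that map to several places were not counted, per the file headers, so genes with close copies, such as the globins, are uncertain.

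The test was the quasi-likelihood F-test of edgeR 4.0.16 (R 4.3.3) on counts scaled by TMM, 5 libraries against 5 without a block. Genes passed filterByExpr (minimum count 10), and Benjamini-Hochberg adjustment covered all genes tested. CPM are counts per TMM-scaled library size, expressed for a library of 1e6 counts. Alternatives were endothelial scaling, RLE scaling, no filter, a mean of at least 5 CPM, DESeq2 1.42.0, glmTreat against a fold of 1.5, a block for batch, either dissection alone and leaving out each library. The fit was tested on simulated data. The motor neuron ratio used a pseudocount of 0.1 CPM and left out wild-type endothelial batch 2, whose 55376 counts equal those of knockout endothelial batch 1.

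The shared numbers are called batches in the titles, which do not say whether same-numbered spinal and meningeal libraries belong together. Centred log2 levels (prior count 2) of same-numbered spinal and meningeal libraries correlated at -0.27, -0.032, 0.30, 0.17 and 0.038. Those of unlike-numbered libraries ran from -0.34 (spinal batch 2 with meningeal batch 3) to 0.33 (spinal batch 2 with meningeal batch 1). Whether the libraries are paired is therefore not known. Batches 4 and 5 of each group were closer to each other than other pairs (mean chi-square per gene 8.93 and 11.9, against 30.5 or more) but differed beyond counting noise, and were kept apart. That difference does not show that they are separate pools of embryos. Members, gene lists and tests were chosen with earlier results of these data known. The rule for named genes takes the 4 marker genes with Kdr and Plxnd1, the 12 largest differences each way at a mean of at least 5 CPM, the 10 largest endothelium-high ones each way at 20 CPM, and up to 4 called members per list and direction with the smallest p. It gives 195 genes, of which the text describes 122, chosen after their values were seen; the others enter the counts only. A further 27 genes were chosen after their values were seen, namely Abcb1a, Abcg2, Angpt2, Axin2, Cdh5, Col1a2, Col3a1, Dll4, Foxc1, Gja5, Lef1, Lum, Notch1, Pdgfrb, Pecam1, Pgf, Plvap, Rgs5, Sema3g, Slc38a5, Slc7a1, Slc7a5, Tek, Tie1, Vegfb, Vegfc and Vtn. Promoter windows are from RefSeq, and 11667 of 16213 tested genes matched by symbol.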

Additional observations from a re-analysis of the deposited data

Results flagged for a closer look

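Single libraries stood apart from the other 4 of their group in 37 of 356 sets of 5 values examined. The cutoff gives about 1 in 20 only for independent values that are normally distributed. Here the genes were chosen after their values were seen, sums contain some of the same genes, and some sets were 0 in all libraries but 1. The count therefore cannot be set against 1 in 20. Spinal batch 2 was high in the mural cell sum (10167 CPM, group median 5332) and in Abcc9 (2456 against 1028 CPM), Rgs5 (3378 against 1513 CPM), Chp2 (171 against 83.6 CPM), Birc5 (68.3 against 58.7 CPM), Pgf (31.7 against 17.1 CPM) and S100a9 (1.09 against 0 CPM). Spinal batch 3 was low in the sums of the junction list (2943, median 3799 CPM), the Wnt7 and norrin receptors (1916, median 2326 CPM), the Wnt target genes (1525, median 2433 CPM) and the shear-responsive genes (273, median 490.3 CPM), and in Abcb1a (40.2 against 82.5 CPM) and Tek (93.2 against 159.5 CPM). It was also the spinal library with the lowest pan-endothelial sum.

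Spinal batch 1 was high in Slc22a6 (6.73, group median 0.131 CPM), Slc7a11 (45.5, median 2.18 CPM), Tex15 (8.72, median 1.09 CPM), Col6a6 (4.22, median 0.414 CPM), Gja1 (202.1, median 129.5 CPM), Igfbp3 (48.6, median 33.1 CPM), Lrp8 (779.7, median 553 CPM), Mrc1 (87.2, median 54.6 CPM) and Myh11 (1.70, median 0.933 CPM). Apart from Lrp8, these genes were lower in spinal than in meningeal libraries, and batch 1 lay nearest to the meningeal values.

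In the meningeal group batch 1 was high in Hbb-y (43982, median 8528 CPM), batch 2 low in Fgfbp3 (0.836, median 3.21 CPM) and Ntn1 (6.30, median 9.55 CPM), batch 3 high in Aldh1l1 (3.86, median 2.12 CPM), batch 4 high in Jam2 (23.3, median 16.9 CPM) and Tek (110.7, median 65.0 CPM), and batch 5 high in Slc22a6 (115.6, median 92.5 CPM). Meningeal batch 3 was high in Ttr (80.3, median 11.9 CPM), BC024139 (0.76, median 0.161 CPM), Gm3764 (2.16, median 0.268 CPM) and Gm37608 (0.351, median 0 CPM), meningeal batch 1 in S100a9 (39.6 against 12.51 CPM) and spinal batch 4 in Ttr (0.196, median 0.045 CPM). Meningeal batch 4 was also the library of its group with a count of Glra1 (0.0473 CPM) and Nkx2-2 (0.0945 CPM), with the other 4 at 0. The regional difference itself differed between the ventral set (batches 1 to 3) and the whole cord set (batches 4 and 5) for Col1a2 (1.58), Col3a1 (1.53) and Lama2 (1.65 on the log2 scale).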

How the results depend on the processing

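Counts of genes higher and lower (4019 and 3736) became 1057 and 12330 on the endothelial scale and 2182 and 1496 with glmTreat at a fold of 1.5. They ran from 3135 to 4557 and from 2925 to 4567 under the other tools, filters, scalings and sets of batches, and from 3566 to 3907 and from 3395 to 3999 without 1 library. Batch as a block gave 3879 and 3457. Besides the calls of Abcg2, Adgra2 and Angpt2 it changed no other call of the genes named. With it 1 motor neuron and 1 neural progenitor marker were lower, where none was without it. The share of neuron-high genes among those higher fell from 41.1% to 24.8% at a ratio of at least 4. Calls of the dissection test (177) ran from 0 to 1147 without 1 library.

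On the endothelial scale 11 named genes changed sign, with log2 differences of -0.87 for Abcg2, -0.80 for Cdh5, -1.08 for Hbb-y, -0.20 for Laptm5, -0.96 for Lef1, -0.35 for Pdgfrb, -0.90 for Pgf, -0.80 for Plvap, -0.58 for Plxnd1, -0.087 for Ptprc and -0.23 for Tek. Hbb-y also changed sign in batches 1 to 3 alone (-0.82). No other named gene changed sign under any alternative. With batches 4 and 5 summed, an alternative chosen after seeing the data, 3679 genes were higher and 3398 lower, and Adgra2 and Fos were no longer called. With the erythroid genes left out, also chosen then, the counts were 3893 and 3951. Depth limits genes near 1 CPM, such as Slco1a4 and Cyp26a1, to low counts per library.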
